A study of Mus musculus with 6 samples.

Results

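The loci described here are those of 6 genes of Hedgehog signalling and of cell cycle entry: Ptch1, Gli1, Gli2, Mycn, Ccnd1 and Ccnd2. Their members are the YAP1 ChIP-seq peaks that overlap a fixed window around each gene on mm9, whatever the height of the peak. The windows are chr13:63590000-63695000 for Ptch1, chr10:126745000-126800000 for Gli1, chr1:120710000-120970000 for Gli2, chr12:12920000-12975000 for Mycn, chr7:152095000-152150000 for Ccnd1 and chr6:127055000-127125000 for Ccnd2. They held 96 of the 46539 peaks of the series, and 52 of the 25223 regions that remain when overlapping peaks of the lists are joined. Peaks were tied to windows and not to genes, because no mm9 gene model was used here. In the gene order of GRCm38, the protein-coding genes next to Gli1 are Arhgap9 and Inhbe, and those next to Ccnd1 are LTO1 and Tpcn2, so a peak in a window may lie nearer to another gene.

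The libraries came from flash-frozen tumour tissue labelled MB (taken as medulloblastoma) of mice of the genotype fSMO-M2;hGFAPcre, abbreviated SG. In these mice Cre recombinase under the human GFAP promoter, which is active in neural progenitors of the developing brain, switches on SmoM2, a form of Smoothened that signals without ligand. All 4 libraries share this genotype, there is no group without SmoM2, and age, treatment and the number of animals per library are not stated in the labels. There were 2 female libraries (SGf 1 and SGf 2) and 2 male libraries (SGm 1 and SGm 2), named by title and replicate number, each with its own peak list. For 2 of the 4 libraries the Sex tag differs from the title: SGm 1 is tagged Female and SGf 2 is tagged Male. The titles were followed. Nothing in the labels says that the libraries came from separate animals, so their spread may be technical. Bulk tissue was used, so fewer cells with binding and weaker binding per cell cannot be told apart, and the tissue label could not be checked against cell type markers in lists of this kind.

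In Hedgehog signalling, the ligand binds the receptor Patched (Ptch1), which otherwise holds Smoothened inactive. Active Smoothened lets the GLI transcription factors reach their targets: Gli2 is the main activator at the start of the response, Gli1 is a target that amplifies it, and Ptch1 is a target that feeds back on it. In granule neuron progenitors of the cerebellum, the cells from which Hedgehog-driven medulloblastoma is known to arise, the pathway raises Mycn and the D-type cyclins Ccnd1 and Ccnd2, which drive progression from G1 to S phase. YAP1 is the co-activator of the Hippo pathway. It has no DNA-binding domain of its own and is known to reach DNA through TEAD factors. The series title names a question of sex differences in YAP1 function, and these loci show where YAP1 peaks lay at the genes of the pathway that drives the tumour.

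Promoter sequences in the RefSeq table of GRCm38.p6 matched 3 of the 6 genes (Ptch1, Gli2 and Mycn). The 250 bases before the listed start of Mycn, on the minus strand at chr12:12941837-12942086 of GRCm38.p6, are printed because the Mycn window held a region found in all 4 lists and the listed start is the outer end of the gene in RefSeq. The Ptch1 window also held such a region, but the listed start of Ptch1 lies inside the span of the gene. These coordinates are of another build than the peaks and cannot be set beside them, so whether a peak covers this sequence was not tested.
Mycn: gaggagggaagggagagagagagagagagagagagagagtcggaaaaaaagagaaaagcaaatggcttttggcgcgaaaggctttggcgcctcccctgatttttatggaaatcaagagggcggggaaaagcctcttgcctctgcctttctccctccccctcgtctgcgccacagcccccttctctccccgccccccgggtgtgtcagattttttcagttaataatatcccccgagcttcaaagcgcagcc
Capitals would mark matches on either strand to GGAATG (TEAD), GACCACCCA (GLI), CACGTG (E-box) or TGANTCA (AP-1), and there were 0 in this stretch. There were also 0 matches in the same stretch of Ptch1 and of Gli2. Of the 32851 promoters in the table, 12.6% held the TEAD letters within 250 bases, 0.225% the GLI letters, 6.02% the E-box and 6.75% the AP-1 letters. The Mycn stretch is 54.8% G and C, that of Gli2 67.2% and that of Ptch1 78.4%, against a median of 52.4% over all promoters of the table.

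Peaks were found at all 6 loci in both female lists, at 4 loci in SGm 2 and at 3 in SGm 1. The windows held 35 peaks of SGf 1, 34 of SGf 2, 4 of SGm 1 and 23 of SGm 2. The lists themselves differ in length, with 16145, 16769, 4155 and 9470 peaks in that order. As a share of its own list, SGm 2 had 0.243% of its peaks in the windows (95% exact Clopper-Pearson interval 0.154 to 0.364), SGf 1 had 0.217% (0.151 to 0.301) and SGf 2 had 0.203% (0.140 to 0.283). The share in SGm 1 was 0.0963% (0.0262 to 0.246), the lowest of the lists, with an interval that overlaps each of the others. The intervals cover counting error only and treat peaks as independent. Read depth behind the lists is unknown, and its part in these counts was not tested.

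**Figure D1:**
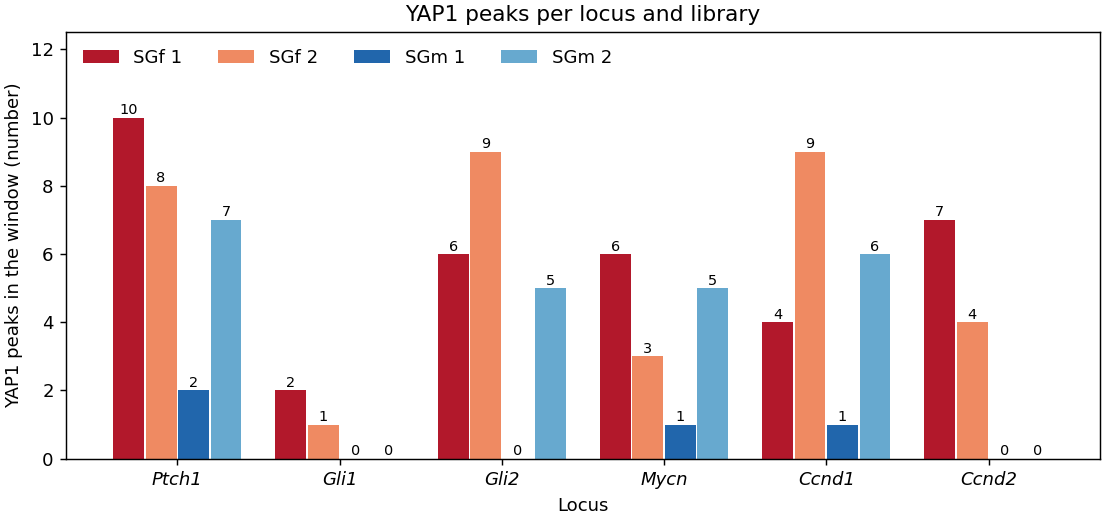
Number of YAP1 peaks (y axis) in the window of each locus (x axis), 1 bar for each library, female libraries in red shades and male libraries in blue shades. SGm 1 has the lowest number or shares the lowest number at every locus, and Gli1 and Ccnd2 have 0 peaks in both male lists.

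Peaks were denser in the windows than along the genome. The windows span 600 kb in all and held 58.3 peaks per Mb in SGf 1, 56.7 in SGf 2, 6.67 in SGm 1 and 38.3 in SGm 2. The whole lists averaged 6.12, 6.36, 1.57 and 3.58 peaks per Mb over chromosomes 1 to 19 and X. The windows were laid around genes, with earlier results of these data known, so the ratio is a description of them and no test was made. Where a window held several peaks, the median distance between neighbouring summits was 1.53 kb in SGf 1 (29 distances), 2.66 kb in SGf 2 (28) and 1.91 kb in SGm 2 (19).

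The peaks of these loci were of middling height in their lists. The fold enrichment given by the authors for a peak, over a background that is not described, ran from 2.21 to 5.24 in SGf 1, from 2.44 to 6.42 in SGf 2, from 3.03 to 3.19 in SGm 1 and from 2.72 to 5.40 in SGm 2. Above the median fold of the whole list (3.63, 3.78, 3.63 and 3.80) lay 16 of 35, 13 of 34, 0 of 4 and 12 of 23 of them. By p-value, the strongest 10% of the list held 3 of the peaks of SGf 2 and 2 of those of SGm 2, and 0 of those of SGf 1 and SGm 1. All 5 were in the windows of Ptch1 and Gli2. The highest place was rank 234 in SGm 2 and rank 320 in SGf 2, both at Ptch1.

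**Figure D2:**
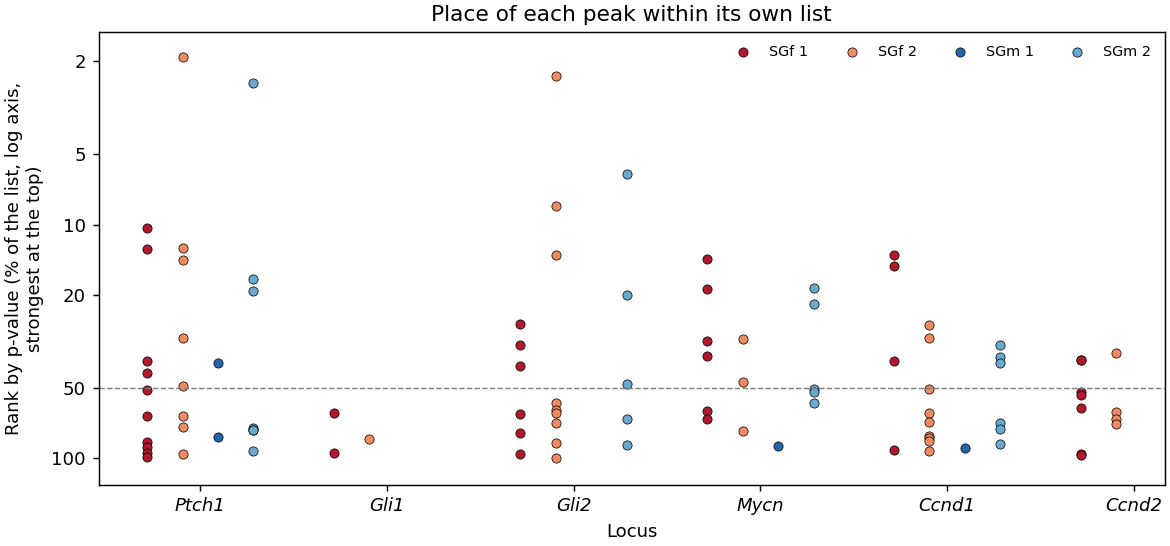
Rank by p-value of each peak of the 6 windows (y axis, percent of its own list on a log axis with the strongest at the top), by locus (x axis) and library (colour), with a dashed line at 50%. The strongest peaks are those of SGf 2 and SGm 2 at Ptch1 and Gli2, and both libraries without a point at Gli1 and Ccnd2 are male.

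Ptch1, the receptor and feedback target, had the most peaks of the 6 loci in SGf 1, SGm 1 and SGm 2, in windows of unlike length. Per Mb of window, SGf 1 had 95.2 peaks at Ptch1 against 109 at Mycn. SGm 2 had 66.7 against 109 at Ccnd1, and only SGm 1 was densest at Ptch1 (19.0). The 105 kb Ptch1 window held 10 peaks in SGf 1, 8 in SGf 2, 2 in SGm 1 and 7 in SGm 2. Of consecutive 105 kb tiles of the genome, 31.9% held a peak in SGf 1, 35% in SGf 2, 12.3% in SGm 1 and 22.8% in SGm 2. The peaks formed 13 regions, 12 of which lay between 63653902 and 63675233. A single SGf 1 peak at chr13:63606300-63606594 lay 47.6 kb below the nearest of them, start to start. Both female lists had more Ptch1 peaks than both male lists, with SGm 2 only 1 below SGf 2.

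The region chr13:63653902-63654269 was present in all 4 lists. Its summits were at 63654036 in SGf 1, 63654059 in SGf 2, 63654048 in SGm 1 and 63654065 in SGm 2, within 29 bp of each other. The fold enrichment was 3.998 in SGf 1, 3.81 in SGf 2, 3.11 in SGm 1 and 3.77 in SGm 2. By p-value the peak ranked 1670th, 2388th, 1632nd and 1616th, and in SGf 1 and SGm 1 it was the strongest peak of any of the 6 windows. The fold values lay between 3.11 and 3.998, with SGm 1 lowest. As a share of lists of unlike length, these ranks stood at 10.3% in SGf 1, 14.2% in SGf 2, 39.3% in SGm 1 and 17.1% in SGm 2.

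The strongest Ptch1 peak of SGf 2 and SGm 2 by p-value lay in chr13:63669078-63669934, at 5.15-fold (rank 320) and 4.80-fold (rank 234). SGf 1 had a peak there of 3.24-fold (rank 2057 by p-value), SGm 1 had none, and the summits of the other libraries were within 52 bp. The highest Ptch1 peak of SGf 2 by fold was 5.94-fold, in chr13:63674732-63675233, where SGf 1 had 3.57-fold and SGm 2 had 2.90-fold. The region chr13:63664621-63665100 held 5.10-fold in SGm 2, the highest Ptch1 value of that list, and 2.85-fold in SGf 1. Beside it, chr13:63665128-63665736 carried the second Ptch1 peak of SGm 1 (3.19-fold), with 2.55-fold in SGf 2 and 2.83-fold in SGm 2. So the leading Ptch1 region by fold differed between the lists, while the 4-list region had the smallest spread of summits.

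Gli2, the activator of the GLI family, had peaks in 3 of the 4 lists. Its 260 kb window, the widest, held 6 peaks in SGf 1, 9 in SGf 2, 0 in SGm 1 and 5 in SGm 2. Tiles of 260 kb, which were not laid around genes as the windows were, held a peak in 51.5%, 55.3%, 24.8% and 39.8% of cases in the same order. The nearest SGm 1 peak lay 502 kb below the window. The Gli2 peaks were spread, with summits over 71.0 kb in SGf 1, 188.6 kb in SGf 2 and 189.4 kb in SGm 2.

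The leading Gli2 region was chr1:120916687-120916983, with 2.89-fold in SGf 1, 6.42-fold in SGf 2 and 5.40-fold in SGm 2. It was the highest peak of all 6 windows in SGf 2 (rank 614 by fold) and in SGm 2 (rank 849 by fold), while SGf 1 had it at rank 13377. The summits of these 3 libraries, at 120916848, 120916846 and 120916848, fell within 2 bp. The next region, chr1:120879013-120879446, had 4.08-fold in SGf 1, 6.17-fold in SGf 2 and 5.22-fold in SGm 2. A further region, chr1:120761263-120761592, was in both libraries numbered 2, at 5.21-fold in SGf 2 and 3.98-fold in SGm 2, and in neither library numbered 1. At each of these regions the libraries numbered 2 carried the higher values, one of each sex, and heights were not tested between lists.

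Gli1, the GLI factor best known as a readout of the active pathway, had the fewest peaks. Its 55 kb window held 2 peaks in SGf 1, 1 in SGf 2 and 0 in both male lists. Tiles of 55 kb held a peak in 20.7% of cases in SGf 1, 22.7% in SGf 2, 7.04% in SGm 1 and 14.1% in SGm 2. The SGf 1 peaks were chr10:126778152-126778470 (3.69-fold, rank 10326 by p-value) and chr10:126779241-126779647 (2.59-fold, rank 15329). The SGf 2 peak was chr10:126748537-126748973 (2.90-fold, rank 13903), 29.6 kb away from them, start to start. No position at Gli1 was therefore held by more than 1 library, and all 3 peaks were in the weaker part of their lists by p-value. The nearest male peaks lay below the window, 41.6 kb away in SGm 1 (2.96-fold) and 18.3 kb away in SGm 2 (3.06-fold).

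**Figure D3:**
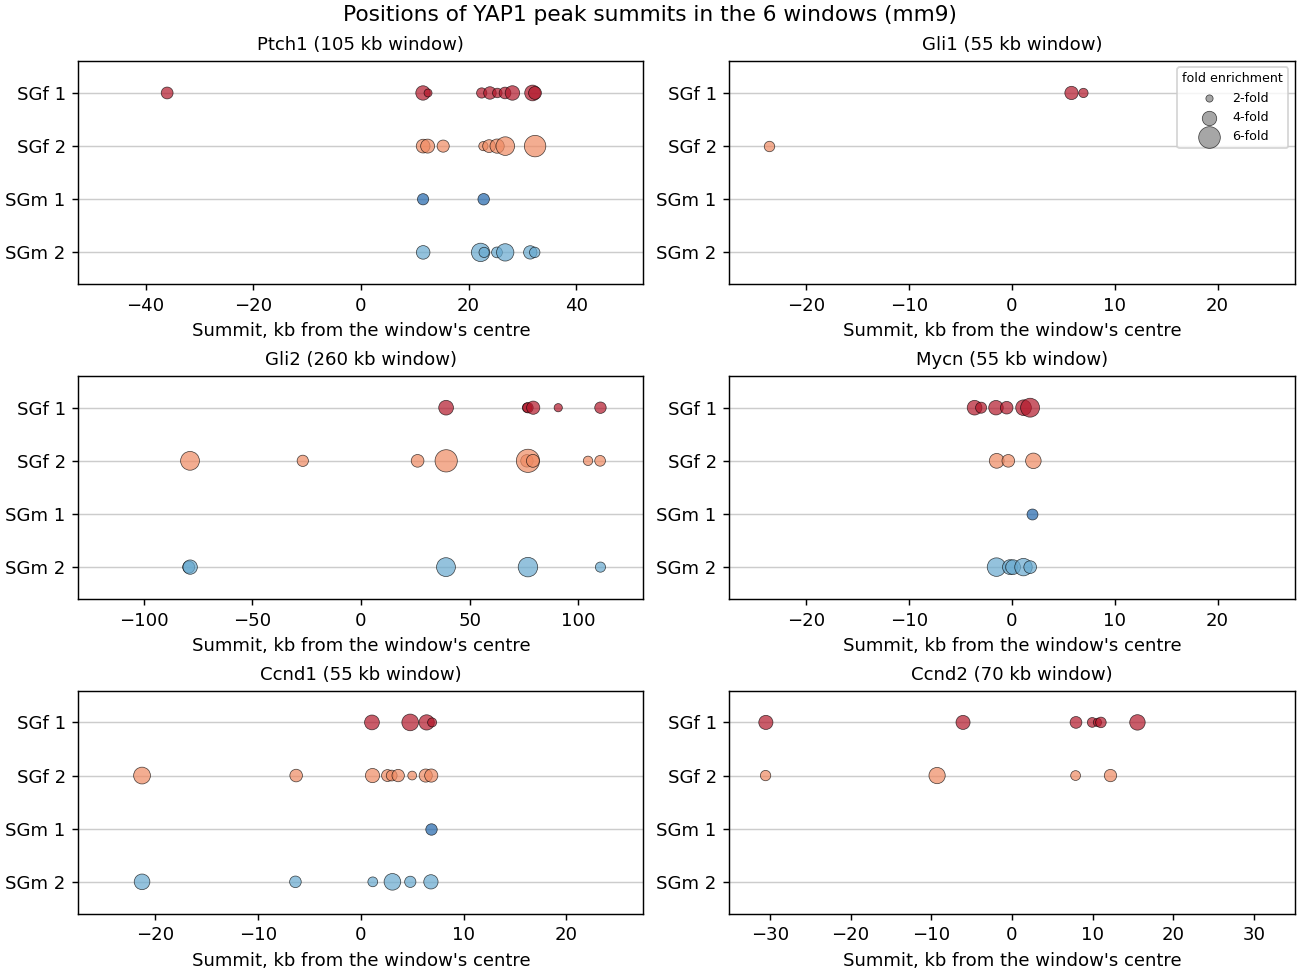
Peak summits in the 6 windows, with kb from the centre of the window on the x axis, 1 line per library on the y axis and the area of a point growing with the square of its fold enrichment (scale in the Gli1 panel). Summits gather within a few kb at Mycn, stand within shared regions of SGf 2 and SGm 2 for 4 of 9 SGf 2 peaks at Gli2 and 6 of 9 at Ccnd1, and are absent from both male lines at Gli1 and Ccnd2.

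Mycn, the MYC family factor that Hedgehog signalling raises in granule neuron progenitors, had peaks in every list. Its 55 kb window held 6 peaks in SGf 1, 3 in SGf 2, 1 in SGm 1 and 5 in SGm 2. The groups overlap here, since SGm 2 had more peaks than SGf 2. The summits were confined to a small part of the window, with a span of 5.40 kb in SGf 1, 3.57 kb in SGf 2 and 3.28 kb in SGm 2. They made up 7 regions, of which chr12:12949104-12949716 was in all 4 lists, at 5.24-fold in SGf 1, 4.30-fold in SGf 2, 3.03-fold in SGm 1 and 3.52-fold in SGm 2. For SGf 1 this region held the highest peak of the 6 windows by fold (rank 1386). Its SGm 1 peak was among the weaker ones, with a p-value rank at 88.5% of the list. Its summits were up to 319 bp apart, at 12949262 in SGf 1 and 12949272 in SGm 2, at 12949486 in SGm 1 and at 12949581 in SGf 2. The closest pair was that of SGf 1 and SGm 2, and the female summits were the farthest apart.

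The region chr12:12945635-12946187 had the highest Mycn peak of SGm 2 (5.13-fold), with 4.02-fold in SGf 1 and 4.10-fold in SGf 2. In chr12:12948346-12948859, SGf 1 had 4.34-fold and SGm 2 had 4.83-fold with summits 7 bp apart, and SGf 2 had no peak. In chr12:12946869-12947359, the values were 3.50-fold in SGf 1, 3.51-fold in SGf 2 and 4.12-fold in SGm 2. Just outside the window, between 8.11 and 8.16 kb below it, all 4 lists had a further peak, at 4.84-fold in SGf 1, 3.82-fold in SGf 2, 2.53-fold in SGm 1 and 3.04-fold in SGm 2.

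Ccnd1, the gene of cyclin D1, also had peaks in every list. Its 55 kb window held 4 peaks in SGf 1, 9 in SGf 2, 1 in SGm 1 and 6 in SGm 2, so the groups overlap. The 4-list region was chr7:152129125-152129537, at 2.50-fold in SGf 1, 3.65-fold in SGf 2, 3.17-fold in SGm 1 and 3.96-fold in SGm 2, with summits within 139 bp. By p-value it was among the weaker peaks in SGf 1 (rank 14913, 92.4% of the list) and in SGm 1 (rank 3751, 90.3%). The highest Ccnd1 peak of SGm 2, 4.61-fold, lay in chr7:152125262-152125734, where SGf 2 had 3.00-fold. That of SGf 1, 4.63-fold, lay in chr7:152127131-152127783, with 2.44-fold in SGf 2 and 3.12-fold in SGm 2. That of SGf 2, 4.66-fold, lay in chr7:152100957-152101395, where SGm 2 had 4.33-fold with its summit 1 bp away. Of the 9 Ccnd1 regions, 3 were in SGf 2 and SGm 2 and in no other list, a pattern of 6.41% of all merged regions.

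**Figure D4:**
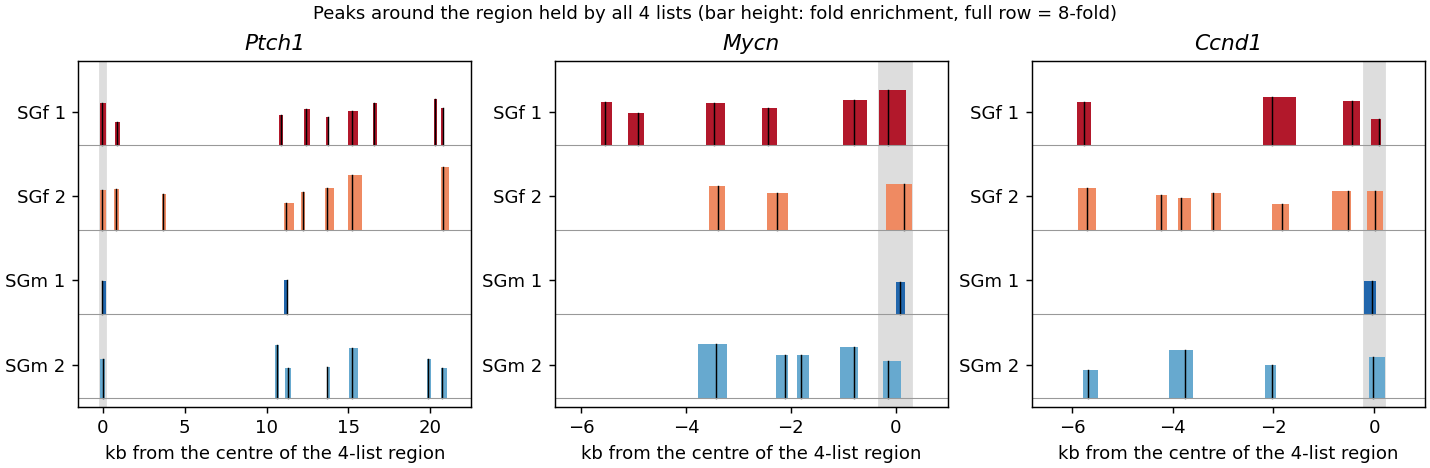
Peaks around the region that all 4 lists hold (grey) at Ptch1, Mycn and Ccnd1, with kb from the centre of that region on the x axis, 1 row per library, bar width equal to peak width, bar height equal to fold enrichment and a black line at the summit. SGm 1 has a peak in the grey region at all 3 loci and 1 further peak, at Ptch1.

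Ccnd2, the gene of cyclin D2, had the largest difference in mean peak number between the sexes in the lists as deposited. Its 70 kb window held 7 peaks in SGf 1, 4 in SGf 2 and 0 in SGm 1 and SGm 2. Tiles of 70 kb held a peak in 24.5%, 27.1%, 8.76% and 17% of cases in the same order. These tiles were not laid around genes as the windows were, so they are not a matched expectation for this window. The highest Ccnd2 peak was chr6:127080610-127080817 in SGf 2 (4.51-fold, rank 4222 by fold), followed by chr6:127105480-127105698 in SGf 1 (4.29-fold, rank 4077), each in 1 list. All 9 regions were in female lists only, as were 14166 of the 25223 merged regions of the series. Both female lists and neither male list held 11.1% of all merged regions, and here 2 of the 9. These were chr6:127059383-127059897, at 3.92-fold in SGf 1 and 2.87-fold in SGf 2, and chr6:127097742-127098014, at 3.27-fold and 2.72-fold, the latter named after its values were seen.

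The female peaks at Ccnd2 were not strong ones, and the male lists had a peak close to the window. By p-value the best Ccnd2 rank was 6125 in SGf 1 and 5920 in SGf 2, both beyond the 4155 peaks of the SGm 1 list. With the SGf lists reduced to the 9470 strongest peaks, the length of SGm 2, SGf 1 kept 4 Ccnd2 peaks and SGf 2 kept 1, against 0 in SGm 2. Above the window, all 4 lists had a peak whose summit lay between 127131556 and 127131631. It was 6.37 to 6.48 kb from the window's edge, at 2.92-fold in SGf 1, 3.14-fold in SGf 2, 2.64-fold in SGm 1 and 3.22-fold in SGm 2. Inside the window, the female peaks nearest to an edge lay 4.38 kb (SGf 2) and 4.39 kb (SGf 1) from it. With the window 50 kb wider on both sides, the locus had 8 peaks in SGf 1, 5 in SGf 2 and 1 in each male list.

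Between the sexes, the mean peak number was higher in the females at each locus in the lists as deposited. The female mean was 1.5 ± 0.707 against a male mean of 0 at Gli1, 7.5 ± 2.12 against 2.5 ± 3.54 at Gli2, 9 ± 1.41 against 4.5 ± 3.54 at Ptch1, 4.5 ± 2.12 against 3 ± 2.83 at Mycn, 6.5 ± 3.54 against 3.5 ± 3.54 at Ccnd1 and 5.5 ± 2.12 against 0 at Ccnd2 (mean ± SD, n = 2 each, male SD 0 where the mean is 0). Both female lists had more peaks than both male lists at 4 of the 6 loci (Gli1, Gli2, Ptch1 and Ccnd2). The same held for 27.2% of the 105 kb tiles with a peak in any list, and the reverse for 0.124%. Of the windows only that of Ptch1 has this length, and tiles with few peaks are counted, so the shares are not like for like. A two-sided exact permutation test gave p = 0.333 at these 4 loci, the smallest that 2 libraries against 2 can give, and 0.667 at Mycn and Ccnd1. The design cannot reach 0.05, and no locus passed the test. With groups from the Sex tag in place of the titles, the difference (Female minus Male) was -4 at Gli2, -1.5 at Ptch1, -0.5 at Mycn and -5 at Ccnd1, and it stayed positive at Gli1 (0.5) and Ccnd2 (1.5). Without SGm 1 the difference at Mycn was -0.5, and without SGf 1 it was 0.

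With lists cut to equal length by p-value, the higher female mean was not kept at Ptch1, Mycn and Ccnd1 and was kept at Gli2. The cause was not tested. With every list reduced to the 4155 strongest peaks by p-value, the numbers in SGf 1, SGf 2, SGm 1 and SGm 2 were 2, 3, 2 and 3 at Ptch1. They were 0, 3, 0 and 2 at Gli2, then 2, 0, 1 and 2 at Mycn, and 2, 0, 1 and 3 at Ccnd1. Gli1 and Ccnd2 had 0 in every list at that length. Every female peak there ranks beyond 4155 by p-value and the male lists hold none. This cut could therefore show nothing about the sexes at Gli1 and Ccnd2. Only Gli2 kept a higher female mean. A comparison chosen after seeing the data cut the SGf lists to the 9470 peaks of SGm 2 and left out SGm 1. SGm 2 then had more peaks than both SGf lists at Gli2 (5 against 3 and 3), Ptch1 (7 against 5 and 5), Mycn (5 against 4 and 2) and Ccnd1 (6 against 3 and 3). Leaving out SGm 1 with the lists uncut gave a difference of 2.5 at Gli2, 2 at Ptch1, -0.5 at Mycn and 0.5 at Ccnd1. The comparison therefore does not show list length by itself. At Ccnd2 the female lists had more at 9470 peaks. At Gli1 all 3 lists had 0, where every female peak ranks beyond 9470 by p-value.

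The sharing of regions at these loci was close to that of all regions. Of the 52 regions, 3 were in all 4 lists (1 each at Ptch1, Mycn and Ccnd1), against 7.89% of all merged regions. In both female and neither male list were 7 (2 each at Gli2, Ptch1 and Ccnd2 and 1 at Ccnd1), against 11.1% of all. In both male and neither female list were 0, against 0.0912% of all. A single list held 25 of the 52, against 52.7% of all. Without SGm 1, the lists that remain had 13 regions in common, so that library sets the count of 3.

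Every SGm 1 peak of these windows was in a region that SGf 2 and SGm 2 also held, 4 of 4, and 3 of 4 were in SGf 1. Over the whole SGm 1 list, 66.8% of peaks were in a region with SGf 2, 55.1% with SGm 2 and 77.9% with SGf 1, and 4 peaks are too few to set apart from these shares. Of the 23 SGm 2 peaks, 20 were in a region with a female peak, 18 of them with SGf 2 and 15 with SGf 1, against 87.4% of the whole SGm 2 list in a female region. The 3 regions of SGm 2 alone were chr1:120760732-120760924 at Gli2 (3.34-fold), chr13:63673911-63674127 at Ptch1 (3.70-fold) and chr12:12947537-12947766 at Mycn (4.08-fold), named because there were only 3. Of the female peaks, 15 of 35 in SGf 1 and 18 of 34 in SGf 2 were in a region with a male peak, against 47.3% and 49.3% of the whole lists. SGf 2 and SGm 2, which share a code in their descriptions, had 4 of the 52 regions to themselves, against 6.41% of all merged regions. SGf 1 and SGm 1, which share another code, held 0, against 2.01% of all.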

How the data were processed

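Chromatin was immunoprecipitated with an anti-YAP1 antibody and sequenced on an Illumina instrument at a company, per the labels' protocols. Of 6 samples, the 4 YAP1 libraries have a peak list, while the pooled inputs (2) were not used here. BWA, HOMER 4.11 and mm9 are named in the submitters' processing notes. Which caller, control and threshold gave the peaks is not given in the sources used here. The authors deposited for each peak a fold enrichment (a ratio), −log10 p and q-values, a score (10 times the −log10 q, rounded down, for 99.99% of peaks) and a summit. The lists end near q = 0.0499. They hold no read counts, so depth is unknown and heights were not tested between lists.

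Peaks overlapping a window by 1 bp were counted, and peaks of all lists overlapping by 1 bp were chained into regions. Ranks are within a list, ties sharing the best rank. Tiles run over chromosomes 1 to 19 and X up to the last peak end. Positions are 1-based. Peak numbers were compared per locus with an exact permutation test over libraries, with no adjustment over loci. At each locus with more than 6 regions, those in all 4 lists and the 3 others of best rank by fold were named. The members and lists were chosen with earlier results of these data known. Other Hedgehog genes were not placed, since no mm9 annotation was used here. Other settings were −log10 q of at least 5, equal list length, summits inside the window, windows 50 kb wider on both sides, groups from the Sex tag, other joining rules (summits within 200 bp, or 50% of both peaks), pairing by number and leaving out each library. Equal length by fold, and SGf lists at the length of SGm 2 with SGm 1 left out, were added after seeing the data. Joining and counting were checked on simulated data. Python 3.11.15, pandas 2.3.3, numpy 2.4.6, scipy 1.17.1 and matplotlib 3.10.9 were used.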

Additional observations from a re-analysis of the deposited data

How the results depend on the processing

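The difference in mean peak number (SGf minus SGm) kept its direction at all 6 loci with windows 50 kb wider. With summits inside the window it could not change, since every peak lay at least 3.5 kb inside the edge of its window. At −log10 q of at least 5 it kept it at 5 loci and was 0 at Gli1. At equal list length by p-value it was 0.5 at Gli2, 0 at Gli1, Ptch1 and Ccnd2, -0.5 at Mycn and -1 at Ccnd1. The 0 at Gli1 and Ccnd2 was fixed beforehand, since every female peak there ranks beyond the cut. By fold the difference was 0.5 at Ccnd2, 0 at Gli1 and Gli2, -0.5 at Ptch1, -1.5 at Mycn and -1 at Ccnd1. The only locus with a higher female mean was thus Gli2 by p-value and Ccnd2 by fold. With SGf lists at the length of SGm 2 the difference was 2.5 at Ccnd2, 0 at Gli1, -2 at Gli2, Ptch1 and Mycn, and -3 at Ccnd1. With groups from the Sex tag it was 0.5 at Gli1, 1.5 at Ccnd2, -4 at Gli2, -1.5 at Ptch1, -0.5 at Mycn and -5 at Ccnd1. With 1 library left out it ranged from 1 to 2 at Gli1, 2.5 to 7.5 at Gli2, 2 to 7 at Ptch1, -0.5 to 3.5 at Mycn, 0.5 to 5.5 at Ccnd1 and 4 to 7 at Ccnd2. The Mycn value of -0.5 is without SGm 1, and without SGf 1 it was 0. Shorter lists hold fewer peaks by construction, and the cause of the other changes was not tested.

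The replicate block, pairing libraries by number, left the differences as they were (5.5 at Ccnd2, 5 at Gli2) with an exact sign-flip p of 0.5 at 5 loci, the smallest that 2 pairs can give, and 1 at Mycn. It changed no call. The pairing follows the replicate number of the titles, and libraries of the same number also share a code in their descriptions.

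In the order all regions, all 4 lists, female pair alone and male pair alone, the main counts were 52, 3, 7 and 0. The stricter q threshold gave 30, 0, 2 and 0, where the counts for all 4 lists and for the male pair were fixed, since SGm 1 kept no window peak. Equal length by p-value gave 16, 1, 0 and 1. The female pair alone had 4 with an overlap of 50% of both peaks. With 1 library left out the ranges were 39 to 52, 3 to 13, 7 to 20 and 0 to 3. The 13 is without SGm 1, and 16, 20 and 17 regions of the female side alone are without SGf 1, SGf 2 and SGm 2. The best rank by p-value in place of fold moved by over 1.5 times in 8 of 19 cases. It was 389 at Gli2 in SGf 2, 1670, 320, 1632 and 234 at Ptch1 in SGf 1, SGf 2, SGm 1 and SGm 2, 2272 and 1766 at Mycn in SGf 1 and SGm 2, and 6125 at Ccnd2 in SGf 1.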
